A study of Mus musculus with 5 samples.

Results

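The genes described here encode the machinery that copies DNA in S phase of the cell cycle, in tumor-infiltrating CD8+ T cells of mice given anti-PD-L1 and of mice given Control IgG. They are 31 of the 23337 genes listed in each library, chosen by symbol from a fixed list that covers the MCM helicase, origin licensing, helicase activation, polymerases, the sliding clamp, nucleotide supply, G1/S control, chromatin assembly and fork repair. The list was chosen with earlier results of these data known. All 31 symbols were found in the files, and all 31 passed the filter on low counts. The labels give the cells as C57BL/6J CD45.1 OT-I CD8+ T cells, whose transgenic receptor recognises an ovalbumin peptide. In all groups these cells came from donors aged 6 to 12 weeks, were stimulated in culture through CD3 and CD28, expanded with interleukin-2 until day 5 or 6, and injected into mice with an ovalbumin-expressing B16-OVA melanoma of 0.25 to 0.4 cm. The anti-PD-L1 group received an antibody that blocks PD-L1, a ligand through which tumor and myeloid cells restrain T cells via PD-1. The Control IgG group received a rat IgG to KLH, a protein that mice lack. Each mouse got 200 µg of antibody 3 and 6 days after the cells. Tumors were taken on day 8 or at 1.2 cm, and all T cells carried the same receptor. There were 2 anti-PD-L1 and 3 Control IgG libraries, and each library came from 5000 to 30000 live CD8+ CD45.1+ cells pooled from several tumors. What the p-values measure is therefore the spread between pools, which may be partly technical.

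Before S phase, origins of replication are licensed when the origin recognition complex, Cdc6 and Cdt1 load the ring of Mcm2 to Mcm7 onto DNA. Cyclin E kinase and E2F transcription factors bring the cell into S phase, Cdc45 and GINS turn the MCM ring into an active helicase, and the polymerases copy each strand with the help of the clamp PCNA. In CD8+ T cells this program is switched on with clonal expansion after antigen stimulation. Levels below are CPM, each library's counts scaled to a common total with TMM factors, which correct for differences in library composition. Fold changes are anti-PD-L1 over Control IgG on the log2 scale, from edgeR's quasi-likelihood test over 11299 genes, with p-values adjusted over all of them by the Benjamini-Hochberg method and a threshold of 0.05.

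The promoters of 4 MCM genes are shown because E2F factors are the textbook regulators of this program and these windows held the most matches to the E2F consensus among the listed genes, level with Rfc3 except for Mcm6. Each runs from 250 bases before to 50 bases after the RefSeq start on GRCm38.p6 and reads 5′ to 3′ on the gene's strand, and capitals mark the matches. The window of Mcm6 lies at chr1:128359656-128359955 on the minus strand, that of Mcm3 at chr1:20820263-20820562 on the minus strand, that of Mcm5 at chr8:75109259-75109558 on the plus strand and that of Mcm7 at chr5:138171834-138172133 on the minus strand.
Mcm6: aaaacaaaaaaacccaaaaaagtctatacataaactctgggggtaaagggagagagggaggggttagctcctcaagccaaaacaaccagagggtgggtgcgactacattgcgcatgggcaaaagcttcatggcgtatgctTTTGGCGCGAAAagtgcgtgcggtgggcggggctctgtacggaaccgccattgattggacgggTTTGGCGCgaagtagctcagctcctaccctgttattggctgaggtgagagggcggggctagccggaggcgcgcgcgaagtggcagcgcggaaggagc
Mcm3: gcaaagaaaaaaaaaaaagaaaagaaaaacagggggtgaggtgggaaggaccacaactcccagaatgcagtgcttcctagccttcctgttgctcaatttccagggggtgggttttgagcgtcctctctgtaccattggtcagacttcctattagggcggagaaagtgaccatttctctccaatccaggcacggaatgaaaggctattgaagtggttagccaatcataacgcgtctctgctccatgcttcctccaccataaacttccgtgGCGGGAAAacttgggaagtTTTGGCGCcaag
Mcm5: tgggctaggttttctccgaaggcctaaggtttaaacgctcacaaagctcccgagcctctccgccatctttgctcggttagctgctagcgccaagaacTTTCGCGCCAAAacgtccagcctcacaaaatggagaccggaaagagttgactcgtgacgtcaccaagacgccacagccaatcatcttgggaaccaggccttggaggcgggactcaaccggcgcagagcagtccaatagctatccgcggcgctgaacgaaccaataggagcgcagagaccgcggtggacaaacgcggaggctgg
Mcm7: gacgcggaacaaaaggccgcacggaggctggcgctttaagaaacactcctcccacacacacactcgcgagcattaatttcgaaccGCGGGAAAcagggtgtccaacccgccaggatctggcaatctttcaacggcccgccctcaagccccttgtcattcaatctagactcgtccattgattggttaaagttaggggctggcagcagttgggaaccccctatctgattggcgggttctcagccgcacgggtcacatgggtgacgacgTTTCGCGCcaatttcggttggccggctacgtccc

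The E2F consensus was searched on both strands as TTTCCCGC, TTTCGCGC, TTTGCCGC and TTTGGCGC, and overlapping matches were counted separately, as in the first run of capitals in Mcm6 and the run in Mcm5. A window was matched for 26 of the 31 genes, and 10 of these held at least 1 match, 38.5%, against 2.32% of 27025 promoter windows of the same length. At least 2 matches stood in 5 of the 26 windows, those of Mcm3, Mcm5, Mcm6, Mcm7 and Rfc3, against 0.0999% of all windows. Cdc6, Cdt1, Pola1, Dtl and Pold1 held 1 each. The CCAAT box occurred in 61.5% of the 26 windows, against 37.9% of all windows. The cell cycle homology region, TTTGAA, a motif of G2 and mitosis genes, occurred in 11.5% of the 26 windows, against 18.1% of all windows and 72.7% of 33 windows of G2 and mitosis genes. The 10 genes with an E2F match had a median log2 fold change of -0.25 and the 16 without a match in this window -0.23. Mcm4, Gins2, Tipin, Rfc2 and Ccne2 had no window and are in neither median. Each window stands at the gene's first listed start, so matches near another start are not counted. A match is a stretch of letters and not a measured binding site.

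No replication gene passed the threshold in either direction after anti-PD-L1. In edgeR's quasi-likelihood test the percent called over all genes was 0 higher and 0 lower, with a smallest adjusted p of 0.9999, so the count among the 31 genes is that of the whole table. At an unadjusted p under 0.05 the count was also 0 of 31, against 1.19% of all tested genes higher and 0.947% lower. Neither DESeq2 nor limma-voom called any of the 31, against 0.0265% and 0% of all genes called higher and 0% called lower in each. Without the filter on low counts 0.0331% of all genes were called higher, and without the 2 libraries numbered 1 the share was 0.00856%, with 0 of the 31 in either. The fold change was below 0 for 28 of the 31 genes, against 51.9% of all tested genes, with a median of -0.21 against -0.015 over all tested genes. Genes measured in the same libraries are not separate observations of the treatment. This count, and those of the other lists below, thus rest on the few libraries. Single values ran from -0.59 for E2f1 to 0.39 for Dtl, with standard errors of 0.23 to 0.47, and 21 of the 31 fold changes were smaller than their own standard error. All 31 intervals of 95% confidence spanned 0. They reached -1 for 7 genes and 1 for 2 genes, where 1 on this scale is a 2-fold change. With the RLE size factors in place of TMM 27 genes lay below 0 and 4 above, and the 1 gene to change sign was Mcm6, at 0.0055.

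**Figure D1:**
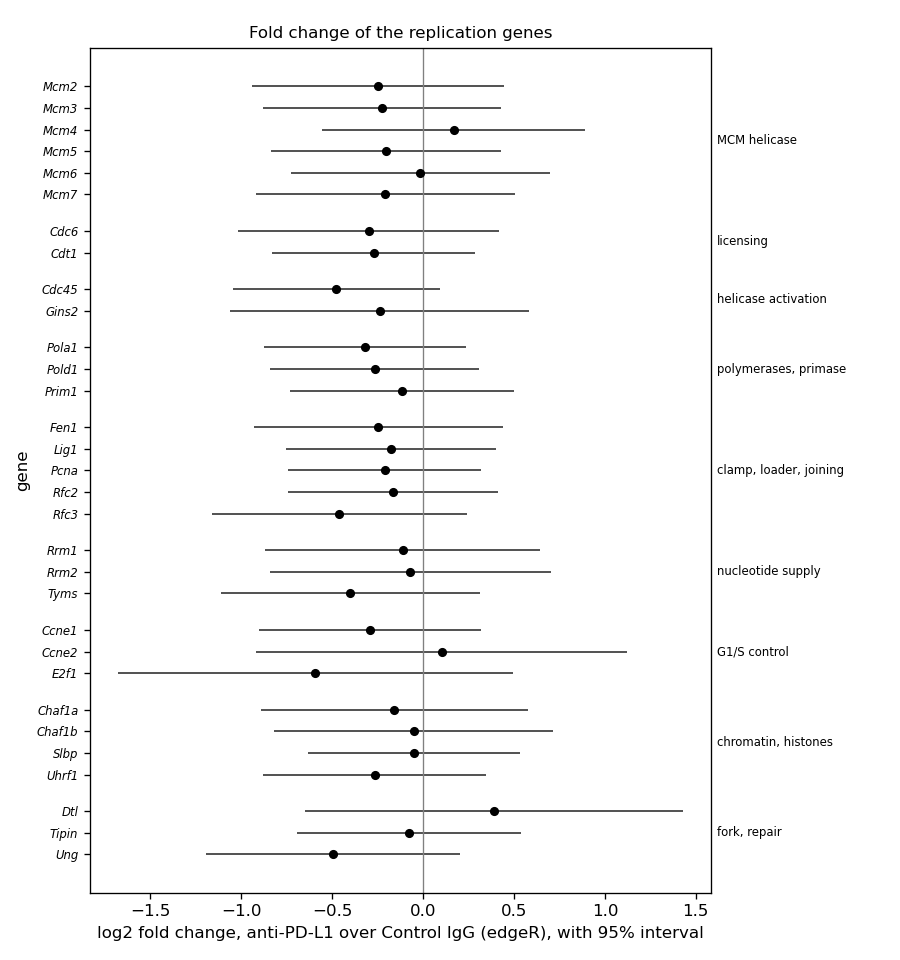
Log2 fold change of each replication gene, anti-PD-L1 over Control IgG, from edgeR with its 95% interval, grouped by role. Points are estimates from 2 anti-PD-L1 and 3 Control IgG libraries; all 31 intervals cross 0, and 28 of the 31 points lie left of it.

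Libraries of the same group differed widely. Anti-PD-L1 replicate 2 was the lowest of all 5 libraries for 24 of the 31 genes, against 14% of all tested genes, and lay below every control for 25, against 20.9%, and above every control for 0, against 21.6%. Anti-PD-L1 replicate 1 lay below every control for 7, against 30.6% of all tested genes, and above every control for 6, against 26.3%. It exceeded anti-PD-L1 replicate 2 for 28 of the 31 genes, against 47.2% of all tested genes, the exceptions being Cdt1, E2f1 and Ung. The highest library was Control IgG replicate 1 for 13 genes, against 28.2% of all tested genes, and Control IgG replicate 3 for 10. The summed level of the 31 genes was 6521 and 4594 CPM in anti-PD-L1 replicates 1 and 2, against 7026, 5208 and 6461 CPM in Control IgG replicates 1, 2 and 3, so the groups overlapped. The 2 libraries numbered 2 were the lowest pair for 16 of the 31 genes, all 6 MCM genes among them, against 10.4% of all tested genes. The direction of the median rested on anti-PD-L1 replicate 2. Leaving it out gave a median of 0.065 with 12 genes below 0, against 54.4% of all tested genes. Leaving out anti-PD-L1 replicate 1 gave -0.44 with 30 genes below 0, against 50.4%. Leaving out Control IgG replicate 1 gave -0.14 and leaving out Control IgG replicate 2 gave -0.32. Without the 2 libraries numbered 1 all 31 genes lay below 0, against 52.4% of all tested genes, with a median of -0.40. That setting leaves anti-PD-L1 replicate 2, already the lowest library for 24 genes, as the only treated library against 2 controls, so its p-values assume that it varies as they do. Cdc45, Cdc6, Rrm2 and Tyms then had an unadjusted p under 0.05, 4 of the 31 against 2.1% of all tested genes lower. With a replicate block in the model Rfc3 and Tyms did, 2 of the 31 against 2.22%, and with library totals in place of TMM Cdc45 did, 1 of the 31 against 1.47%.

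**Figure D2:**
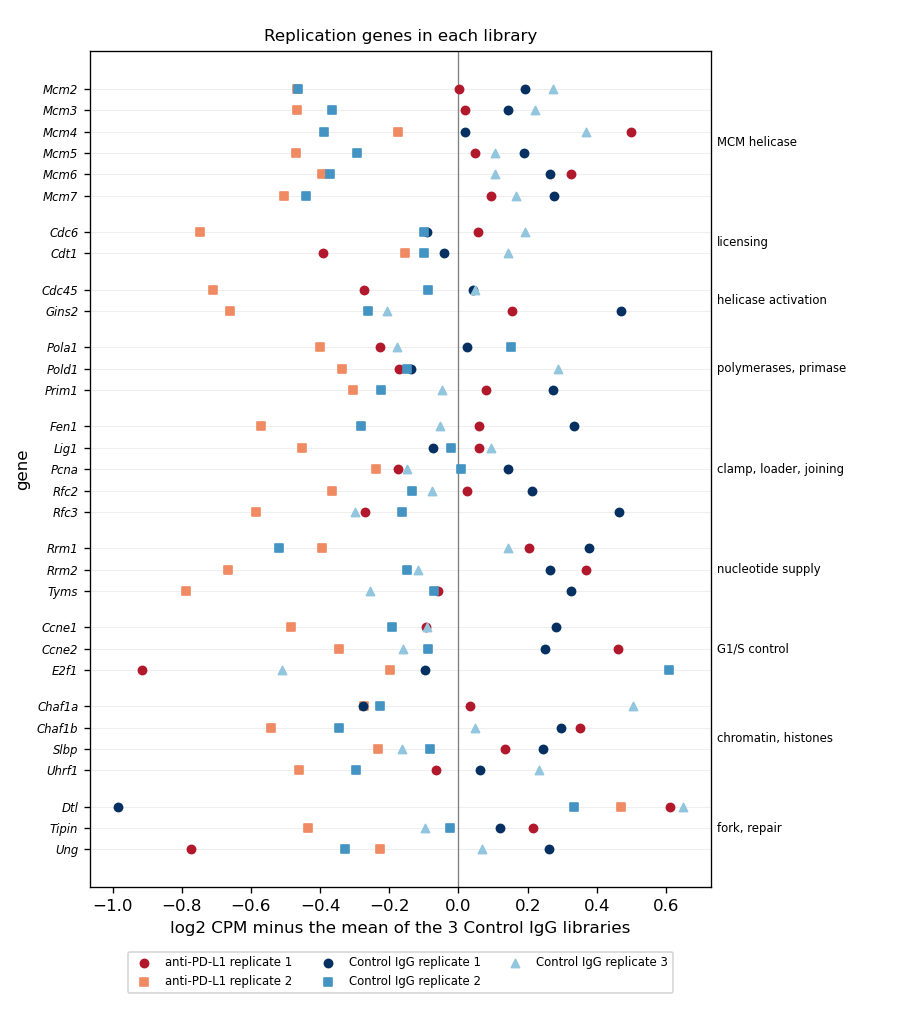
Log2 CPM of each replication gene in each library minus the mean of the 3 Control IgG libraries, grouped by role. Red and orange symbols are the anti-PD-L1 libraries and blue symbols the controls; anti-PD-L1 replicate 2 (orange squares) is the lowest symbol for 24 of the 31 genes.

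The share of reads that fell in no feature was 7.46% and 15.2% in anti-PD-L1 replicates 1 and 2, against 9.02%, 14.0% and 11.2% in Control IgG replicates 1, 2 and 3. It was highest in the libraries numbered 2, where the replication genes summed lowest, and its part in the result was not tested. Counts assigned to genes numbered 9985943 to 12830485. At least 1 count was found for 11977 and 13564 genes in the anti-PD-L1 libraries and for 11696, 13673 and 13801 in Control IgG replicates 1, 2 and 3, so the libraries numbered 1 stood apart in both groups. Every listed gene had at least 77 counts in every library. All 10 markers of CD8+ T cells were present, with Cd3e at 1106 to 1355 CPM. The 5 markers of CD4+ T cells summed to 79.7 to 122 CPM, mostly from Il2ra, while Cd4 did not exceed 1.23 CPM. The 5 B cell markers summed to 1.39 to 6.13 CPM, mostly from Cd79b, with Pax5 at 0 in all 5 libraries. Cd8a itself had 2045 and 1482 CPM in anti-PD-L1 replicates 1 and 2, against 2162, 1402 and 1409 CPM in Control IgG replicates 1, 2 and 3, also high in the libraries numbered 1. B16 melanoma cells also divide, and 8 melanoma markers summed to 44.6 and 104 CPM in anti-PD-L1 replicates 1 and 2, against 4.47, 292 and 92.95 CPM in Control IgG replicates 1, 2 and 3. The 10 myeloid markers summed to 130 and 200 CPM in the anti-PD-L1 libraries, against 347, 160 and 122.5 CPM in the controls. The 5 natural killer markers summed to 220 and 82.2 CPM, against 66.5, 85.0 and 93.3 CPM, nearly all from Klre1, with Klra4 and Klra8 at 0 in all 5. The 7 markers of fibroblasts and endothelium summed to 30.6 and 46.1 CPM, against 48.7, 36.8 and 54.9 CPM, nearly all from Pecam1. Col3a1, Dcn, Cdh5 and Kdr were at 0 in all 5. The part of other cells and of library quality in the differences below was not tested. In bulk RNA, fewer cells in S phase and less RNA per cell in S phase cannot be told apart.

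The MCM helicase unwinds DNA ahead of the fork and is a ring of 6 related ATPases. Mcm6 had 821 and 498 CPM in anti-PD-L1 replicates 1 and 2, against 788, 507 and 706 CPM in Control IgG replicates 1, 2 and 3, a log2 fold change of -0.015 ± 0.31 (SE). Mcm5 had 492 and 343 CPM after anti-PD-L1, against 542, 388 and 512 CPM in controls (-0.20 ± 0.27). Mcm3 had 443 and 316 CPM after anti-PD-L1, against 483, 339 and 510 CPM in controls (-0.23 ± 0.28). In each of these genes the anti-PD-L1 replicate 2 and Control IgG replicate 2 libraries were low and the other 3 high. Mcm7 had 471 and 311 CPM after anti-PD-L1, against 535, 325 and 495 CPM in controls (-0.21 ± 0.31). Mcm2 had 292 and 211 CPM after anti-PD-L1, against 333, 212 and 353 CPM in controls (-0.25 ± 0.30). Their groups overlapped in the same way. Mcm4 stood apart in sign, with 324 and 203 CPM after anti-PD-L1, against 232, 175 and 295 CPM in controls, a fold change of 0.17 ± 0.31. Its interval ran from -0.55 to 0.89, and leaving out anti-PD-L1 replicate 1 turned it to -0.21, leaving out Control IgG replicate 2 to -0.0022. The median over the 6 genes was -0.21, or 0.079 without anti-PD-L1 replicate 2 and -0.49 without anti-PD-L1 replicate 1.

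The ring holds its 6 subunits in equal number, so their transcripts were also compared per length, as CPM per kilobase of merged exon. Merged exons pool all protein-coding transcripts of a gene, and the annotation used for counting is not given. Levels and orders per length, here and below, may therefore change with other exon models. Over the 5 libraries Mcm6 averaged 152 ± 35.0, Mcm7 144 ± 34.6, Mcm3 138 ± 28.5, Mcm5 132 ± 24.7, Mcm2 83.1 ± 19.7 and Mcm4 68.5 ± 17.4 CPM per kilobase (SD, n = 5). Among these genes only Mcm7 shares exon bases with other genes, 13% with Ap4m1 and Cops6, so its place in the order is uncertain. The range of Mcm2 over libraries, 62.7 to 104.7, reached those of Mcm3 and Mcm5, which began at 104.2 and 99.3. Ranges also overlapped among the 4 most abundant and between Mcm2 and Mcm4. Within libraries Mcm6 exceeded Mcm5 in all 5, and the order of the other pairs among these 4, and of Mcm2 and Mcm4, differed between libraries. As a share of the MCM sum within a library, which sets aside how high all 6 were together, Mcm3 took 18% to 20.2%, Mcm5 17.5% to 19.98% and Mcm7 19.4% to 21.5%. Mcm4 took 11.1% and 10.4% in anti-PD-L1 replicates 1 and 2, against 7.69%, 8.68% and 9.90% in Control IgG replicates 1, 2 and 3. For Mcm4 the groups did not overlap, a contrast chosen after its values were seen and not tested. Mcm2 took 10.7% and 11.6% after anti-PD-L1, against 11.8%, 11.2% and 12.6% in controls, and Mcm6 took 23.1% and 21.0%, against 21.4%, 20.7% and 19.4%, with overlap in each.

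**Figure D3:**
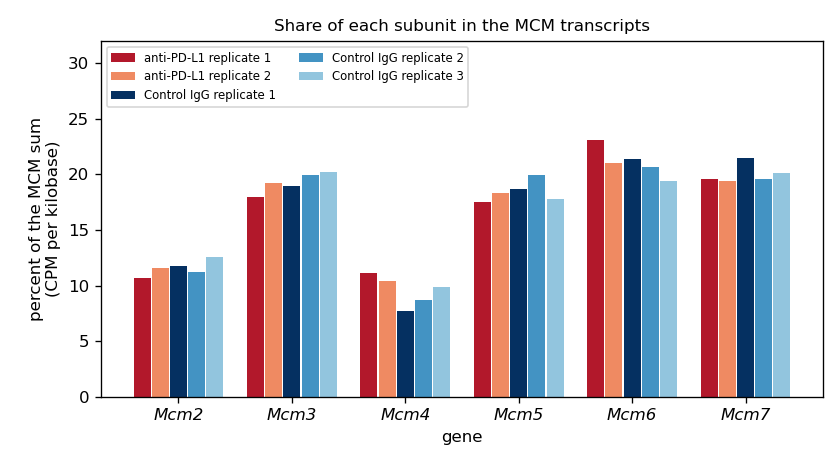
Share of each MCM subunit in the summed MCM level (CPM per kilobase of exon, percent) in each library. Bars are single libraries, anti-PD-L1 in red and orange and Control IgG in blue. The 2 anti-PD-L1 bars of Mcm4, at 11.1% and 10.4%, stand above its control bars at 7.69% to 9.90%. That contrast was chosen after its values were seen and was not tested. In every other subunit the bars of the groups overlap.

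The origin licensing genes Cdt1 and Cdc6 stood below every MCM gene per length, at 27.6 to 40.0 and 7.10 to 13.7 CPM per kilobase over the 5 libraries, against 48.7 or more for the MCM genes. Cdt1, which brings the MCM ring to the origin and is destroyed once S phase starts, had 60.4 and 71.4 CPM in anti-PD-L1 replicates 1 and 2, against 77.1, 74.0 and 87.6 CPM in controls (-0.27 ± 0.24). Both anti-PD-L1 libraries lay below all controls, and replicate 1 was the lower of the pair. Cdc6, an ATPase of the loading step, had 59.4 and 34.0 CPM after anti-PD-L1, against 53.6, 53.3 and 65.4 CPM in controls (-0.30 ± 0.31). Here only anti-PD-L1 replicate 2 was low. Without the 2 libraries numbered 1, which sets this library alone against 2 controls, Cdc6 had -0.82 with an edgeR adjusted p of 0.9681, and without anti-PD-L1 replicate 2 it had 0.080.

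Helicase activation was represented by Cdc45 and Gins2, which join the MCM ring in the active helicase. Cdc45 had 86.3 and 63.8 CPM in anti-PD-L1 replicates 1 and 2, against 107, 98.2 and 108 CPM in controls. The controls were tight, at 104 ± 5.44 CPM (SD, n = 3), and both anti-PD-L1 libraries lay below them, at a mean of 75.0 ± 15.9 CPM (SD, n = 2). Its log2 fold change of -0.48 ± 0.25 had the smallest unadjusted p of the 31 genes, 0.0894 in edgeR, with an interval from -1.05 to 0.092. With scaling by library totals only it was -0.52 at an unadjusted p of 0.0409, with an edgeR adjusted p of 1. Leaving out anti-PD-L1 replicate 2 brought it to -0.24, and setting that library alone against Control IgG replicates 2 and 3 gave -0.71 with an edgeR adjusted p of 0.9998. Gins2 had 60.9 and 34.6 CPM after anti-PD-L1, against 75.8, 45.6 and 47.4 CPM in controls (-0.24 ± 0.36). Of its exon bases 70.7% are shared with Gse1, and reads of the pair cannot be told apart without strand, so its value is uncertain. Smaller shares, 13% for Mcm7, 19.1% for Rfc2, 14.4% for Slbp and 10.5% for Ccne2, lie in exons of other genes as well.

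The polymerases and primase start and extend DNA strands. Pola1, the catalytic subunit of polymerase alpha, had 76.9 and 68.1 CPM in anti-PD-L1 replicates 1 and 2, against 91.5, 100.1 and 79.6 CPM in controls (-0.32 ± 0.24). Pold1, the catalytic subunit of the lagging strand polymerase delta, had 135 and 121 CPM after anti-PD-L1, against 138, 137 and 186 CPM in controls (-0.27 ± 0.25). For both genes the 2 anti-PD-L1 libraries lay below all controls. Prim1, the primase that makes the RNA primer, had 85.2 and 65.2 CPM after anti-PD-L1, against 97.4, 69.0 and 77.9 CPM in controls (-0.12 ± 0.27), with overlap. The median of the 3 genes was -0.27, with -0.15 when Control IgG replicate 3 was left out, -0.15 when anti-PD-L1 replicate 2 was and -0.35 when anti-PD-L1 replicate 1 was. This sign was below 0 whichever single library was left out, which was also so for the medians of licensing, helicase activation and G1/S control.

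The clamp PCNA holds polymerases on DNA and was the most abundant of the 31 transcripts per length, at 345 ± 37.8 CPM per kilobase over the 5 libraries (SD, n = 5). It had 489 and 467 CPM in anti-PD-L1 replicates 1 and 2, against 609, 554 and 498 CPM in controls (-0.21 ± 0.23), and both anti-PD-L1 libraries lay below all controls. Rfc2 and Rfc3 are subunits of the clamp loader. Rfc3 had 74.5 and 59.9 CPM after anti-PD-L1, against 124, 80.3 and 73.1 CPM in controls (-0.46 ± 0.31), and Control IgG replicate 1 was far above the other 4 libraries. Rfc2 had 241 and 184 CPM after anti-PD-L1, against 274, 215 and 224 CPM in controls (-0.17 ± 0.25). Fen1 trims the flap of an Okazaki fragment and Lig1 seals the nick. Fen1 had 265 and 171 CPM after anti-PD-L1, against 321, 209 and 245 CPM in controls (-0.25 ± 0.30), and 84.1% of its exon bases are shared with Tmem258 and Gm10143, which makes its count uncertain. Lig1 had 146 and 102 CPM after anti-PD-L1, against 133, 138 and 149 CPM in controls (-0.18 ± 0.25). The median of these 5 genes was -0.21, and 0.049 without anti-PD-L1 replicate 2.

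Nucleotide supply was represented by Rrm1 and Rrm2, the subunits of ribonucleotide reductase, and by Tyms, which makes the thymidine precursor dTMP. Rrm2 varied most between the anti-PD-L1 libraries, with 414 and 202 CPM in replicates 1 and 2, against 385, 289 and 295 CPM in controls. The anti-PD-L1 libraries were thus the highest and the lowest of all 5, and the fold change was -0.070 ± 0.34. Rrm1 had 387 and 255 CPM after anti-PD-L1, against 437, 234 and 371 CPM in controls (-0.11 ± 0.33), following the MCM genes in its low libraries numbered 2. Tyms had 117 and 70.5 CPM after anti-PD-L1, against 153, 116 and 102 CPM in controls (-0.40 ± 0.31), and its count is uncertain because the pseudogene Tyms-ps is counted beside it. Tyms came to -0.049 on leaving out anti-PD-L1 replicate 2 and to -0.22 on leaving out Control IgG replicate 1. With anti-PD-L1 replicate 2 alone against Control IgG replicates 2 and 3, Rrm2 had -0.55 and Tyms -0.64, with edgeR adjusted p-values of 0.9998, and for Rrm2 this left out the highest library of all 5. The median of the 3 genes was -0.11, which became 0.19 without anti-PD-L1 replicate 2, -0.68 without anti-PD-L1 replicate 1 and 0.075 without Control IgG replicate 1. Per length, Rrm2 averaged 144 ± 38.5, Rrm1 84.3 ± 21.9 and Tyms 35.3 ± 9.39 CPM per kilobase (SD, n = 5).

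**Figure D4:**
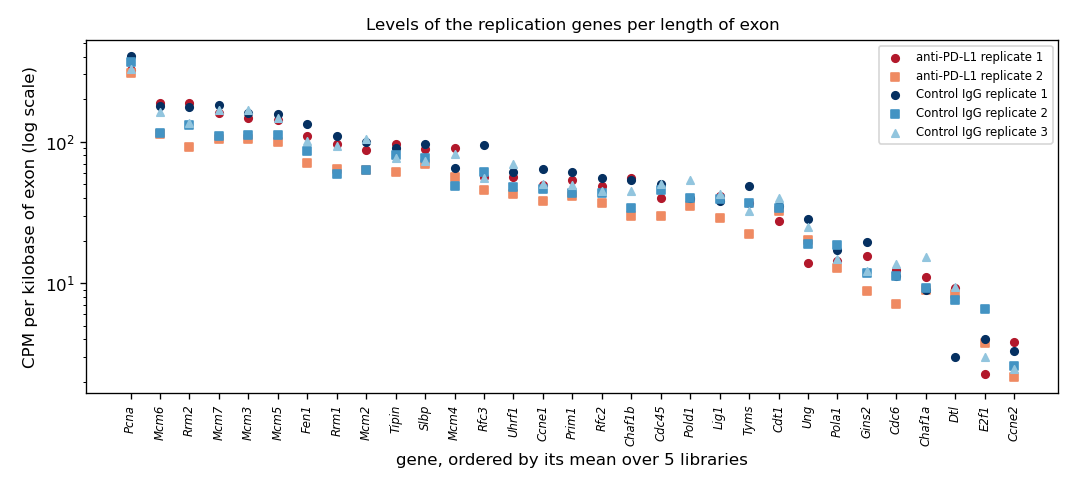
Level of each replication gene per length of exon (CPM per kilobase, log scale) in each library, genes ordered by their mean over 5 libraries. Symbols are single libraries; Pcna leads at 308 to 401, and E2f1 and Ccne2 close the order at 2.16 to 6.60.

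Of the G1/S control genes, cyclin E1 far exceeded cyclin E2. Both activate the kinase CDK2 at S phase entry, and per length Ccne1 averaged 49.7 ± 9.61 and Ccne2 2.87 ± 0.676 CPM per kilobase (SD, n = 5). Ccne1 had 99.5 and 75.8 CPM in anti-PD-L1 replicates 1 and 2, against 129, 92.96 and 99.7 CPM in controls (-0.29 ± 0.27). Ccne2 had 12.2 and 6.93 CPM after anti-PD-L1, against 10.5, 8.31 and 7.89 CPM in controls (0.10 ± 0.44), so the anti-PD-L1 libraries held its extremes. E2f1, an activating E2F factor, had 7.14 and 11.8 CPM after anti-PD-L1, against 12.7, 20.8 and 9.50 CPM in controls. Its fold change of -0.59 ± 0.47 was the lowest of the 31 and also the least precise, with an interval from -1.68 to 0.49.

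Chromatin assembly follows the fork. Chaf1a and Chaf1b belong to the chromatin assembly factor that places new histones, Uhrf1 reads hemimethylated DNA for the maintenance methyltransferase, and Slbp binds the stem loop of histone mRNA. Uhrf1 had 206 and 157 CPM in anti-PD-L1 replicates 1 and 2, against 225, 175 and 254 CPM in controls (-0.27 ± 0.27). Chaf1b had 108 and 58.0 CPM after anti-PD-L1, against 104, 66.5 and 87.4 CPM in controls (-0.052 ± 0.33). Slbp had 236 and 183 CPM after anti-PD-L1, against 255, 203 and 192 CPM in controls (-0.049 ± 0.25). Chaf1a had 61.4 and 49.6 CPM after anti-PD-L1, against 49.4, 51.1 and 85.1 CPM in controls (-0.16 ± 0.32), with 33.6% of its exon bases shared with Ubxn6. All 4 groups of values overlapped.

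The last 3 genes act around the fork. Dtl, the substrate receptor of the ubiquitin ligase that destroys Cdt1 in S phase, had the highest fold change of the 31, 0.39 ± 0.45, with 38.7 and 35.1 CPM in anti-PD-L1 replicates 1 and 2, against 12.7, 31.9 and 39.7 CPM in controls. Its value rested on Control IgG replicate 1, the lowest library, without which it was 0.041, and without the 2 libraries numbered 1 it was -0.045. Tipin, a partner of Timeless in fork protection, had 177 and 113 CPM after anti-PD-L1, against 166, 150 and 143 CPM in controls (-0.077 ± 0.27). Ung, which removes uracil from DNA, had 35.4 and 51.8 CPM after anti-PD-L1, against 72.7, 48.3 and 63.6 CPM in controls (-0.50 ± 0.30). Ung and E2f1 were lowest in anti-PD-L1 replicate 1, as was Cdt1, the reverse of the order in the other 28 genes.

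Among the roles, median log2 fold changes ran from -0.36 for helicase activation to -0.077 for the fork and repair genes. In anti-PD-L1 replicate 2 every role median lay below the control mean, from -0.69 for helicase activation to -0.23 for the fork and repair genes. In anti-PD-L1 replicate 1 the role medians ran from -0.17 for polymerases and primase to 0.21 for the fork and repair genes, with nucleotide supply at 0.20 and the MCM helicase at 0.071. In Control IgG replicate 2 the MCM median lay at -0.38, against -0.15 for both nucleotide supply and the polymerases and primase. Both anti-PD-L1 libraries lay below all controls for 5 of the 31 genes, Cdc45, Cdt1, Pcna, Pola1 and Pold1, against 9.57% of all tested genes, and above them for 0, against 7.73%. Replicate 2 alone lay below all controls for 25 of the 31, against 20.9%, and replicate 1 for only 7, against 30.6%. In Pcna and Pold1 replicate 1 was close to the lowest control, at 489 against 498 CPM and 135 against 137 CPM.

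**Figure D5:**
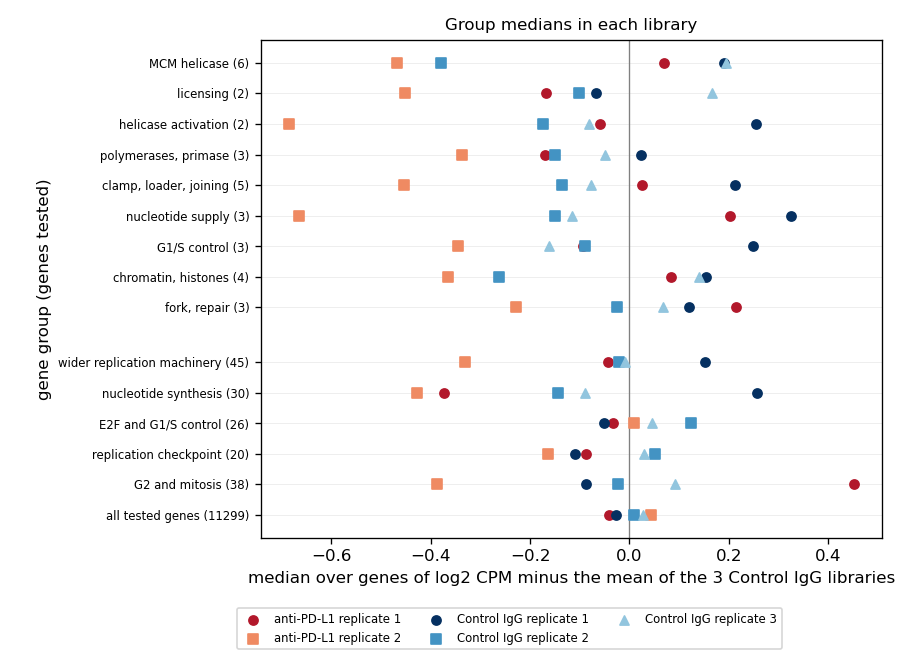
Median over the genes of a group of log2 CPM minus the mean of the 3 Control IgG libraries, for the 9 roles of the 31 genes above and for 5 other lists and all tested genes below. Symbols are single libraries; anti-PD-L1 replicate 2 (orange squares) is lowest in all 9 roles, and G2 and mitosis genes place anti-PD-L1 replicate 1 at 0.45 and replicate 2 at -0.39.

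Other genes of the same pathways were taken from fixed lists. Of 45 further genes of the replication machinery, such as the origin recognition complex, further polymerase and GINS subunits and the RPA proteins, 0 passed the threshold in either direction, and 35 lay below 0 with a median of -0.23, against 51.9% of all tested genes below 0. Both anti-PD-L1 libraries lay below all controls for 10 of them, against 9.57% of all tested genes. The smallest unadjusted p in edgeR belonged to Pola2, the regulatory subunit of polymerase alpha, with 76.5 and 91.4 CPM in anti-PD-L1 replicates 1 and 2, against 146, 110 and 127 CPM in controls, a fold change of -0.60 ± 0.25 at an unadjusted p of 0.0414 and an adjusted p of 0.9999. On the higher side it was Asf1b, a histone chaperone, at 0.35 ± 0.30. Leaving out anti-PD-L1 replicate 2 gave a list median of -0.049, and leaving out anti-PD-L1 replicate 1 gave -0.36.

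Of 30 nucleotide synthesis genes, which cover the folate, thymidylate, pyrimidine and purine pathways, 27 lay below 0 with a median of -0.44, and 0 passed the threshold. Both anti-PD-L1 libraries lay below all controls for 15 of the 30, against 9.57% of all tested genes. Here the 2 anti-PD-L1 libraries were alike, with list medians of -0.37 in replicate 1 and -0.43 in replicate 2, against 0.26, -0.14 and -0.089 in Control IgG replicates 1, 2 and 3. Shmt1, a serine hydroxymethyltransferase that feeds thymidylate synthesis, had 64.0 and 84.5 CPM in anti-PD-L1 replicates 1 and 2, against 202, 118 and 112 CPM in controls, a fold change of -0.95 ± 0.33 at an unadjusted p of 0.0204 and an edgeR adjusted p of 0.9999. Dck, the salvage enzyme deoxycytidine kinase, lay on the other side at 0.42 ± 0.30, with 133 and 74.9 CPM against 73.3, 70.5 and 88.4 CPM. The list median was -0.27 without Control IgG replicate 1, -0.50 without Control IgG replicate 2 and -0.26 without the 2 libraries numbered 1.

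The 26 genes of E2F and G1/S control had a median of -0.046, with 12 above and 14 below 0 and 0 past the threshold. Above all controls in both anti-PD-L1 libraries were 6 of the 26, against 7.73% of all tested genes. Below all controls in both were 3, against 9.57%. Cdkn1a, which encodes the CDK inhibitor p21, had 54.1 and 66.1 CPM in anti-PD-L1 replicates 1 and 2, against 20.6, 41.1 and 24.4 CPM in controls. Its levels after anti-PD-L1 thus exceeded every control. Its fold change was 1.07 ± 0.35 at an unadjusted p of 0.0148 and an edgeR adjusted p of 0.9999. Tfdp1, the dimer partner of E2F factors, had -0.50 ± 0.27, with 122 and 95.9 CPM against 190, 129 and 143 CPM. The 20 replication checkpoint genes had a median of -0.21, with 15 below 0, and 0 passed. Of these 20, 4 lay below all controls in both anti-PD-L1 libraries and 0 above, against the same shares of all tested genes. Exo1, a repair exonuclease, had 24.9 and 24.5 CPM, against 39.1, 32.8 and 35.7 CPM (-0.54 ± 0.28), and Blm, a helicase of stalled forks, had 0.35 ± 0.35. Without Control IgG replicate 2 the checkpoint median was -0.057 and that of E2F and G1/S control 0.083.

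G2 and mitosis genes had a median of 0.12 over 38 genes, with 26 above and 12 below 0 and 0 past the threshold. The median turned to -0.39 on leaving out anti-PD-L1 replicate 1 and reached 0.48 on leaving out replicate 2. Of the 38, 2 lay above all controls in both anti-PD-L1 libraries, against 7.73% of all tested genes, and 0 below, against 9.57%. Their summed level was 6859 and 4255 CPM in anti-PD-L1 replicates 1 and 2, against 4993, 5467 and 5538 CPM in controls. The sum of the 31 replication genes divided by this sum was 0.951 and 1.08 in the anti-PD-L1 libraries, against 1.41, 0.953 and 1.17 in controls, with overlap. Bub1, a spindle checkpoint kinase, had 101.9 and 33.7 CPM, against 29.3, 37.1 and 43.9 CPM, a fold change of 0.88 ± 0.44 that became -0.13 without anti-PD-L1 replicate 1. Smc4, a condensin subunit, had -0.24 ± 0.27. Histone genes of the replication-dependent clusters, most of whose mRNAs lack the poly(A) tail by which this RNA was selected, summed to 414 and 364 CPM after anti-PD-L1, against 280, 385 and 376 CPM in controls. Of these, 41 of 68 passed the filter, with 20 above and 21 below 0 and 0 past the threshold. Hist1h1e had 50.1 and 41.1 CPM, against 29.6, 34.1 and 31.6 CPM (0.52 ± 0.27), and Hist2h2be -2.04 ± 1.49 at 0.0927 to 3.37 CPM.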

How the data were processed

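RNA sequencing was done on poly(A) RNA amplified by a modified Smart-seq2 protocol, per the labels' protocols. The deposited files hold raw read counts for each gene symbol, made by the authors and not normalized. TopHat, HTSeq and build mm10 are named, per the submitters' processing notes, with no versions; annotation and strand setting are not given in the sources used. Reads without a feature made up 7.46% to 15.2% of a library and ambiguous reads 1.38% to 1.51%, and both were left out. No pair of libraries agreed within sampling noise (chi-square per degree of freedom 19.2 to 92.3). PCR copies are counted as reads.

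The test was edgeR 4.0.16's two-sided quasi-likelihood F-test (R 4.3.3) with TMM scaling and filterByExpr at a count of 10 and a total of 15. A standard error is the fold change over the root of F, and its interval uses the test's degrees of freedom. Log2 CPM used a prior count of 2. Alternatives were RLE size factors, library totals, no filter, DESeq2 1.42.0, limma-voom 3.58.1, a replicate block and leaving out libraries. Exon lengths are merged exons of protein-coding transcripts in GENCODE vM21 on GRCm38, and promoters are RefSeq's on GRCm38.p6, at each gene's first listed start. The members and lists were chosen with earlier results of these data known. All 31 members are named, and of each other list the gene of smallest p in each direction; promoters shown are those with most E2F matches.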

Additional observations from a re-analysis of the deposited data

How the results depend on the processing

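The count of replication genes called was 0 in each direction in every alternative run, as was the count of all genes called lower. Over all genes, 0 were called higher by edgeR, against 5 without a low-count filter, 4 in DESeq2 and 1 without the 2 libraries numbered 1, none of them a replication gene. With 1 library left out, the median of the 31 genes ran from -0.44 to 0.065. It was -0.40 without the 2 libraries numbered 1, with all 31 below 0 against 52.4% of all genes. The replicate numbers were not taken as pairs, since the labels give no shared batch and only 2 numbers are shared. Deviations from the group mean correlated across genes at 0.331 and 0.374 for the same-numbered libraries 1 and 2. For anti-PD-L1 1 with Control IgG 2 and anti-PD-L1 2 with Control IgG 1 they correlated at -0.374 and -0.331. With only 2 anti-PD-L1 libraries, their deviations mirror each other. These values thus rest on a single contrast and are not separate signs of a shared batch. With a replicate block the median was -0.16, 0 genes were called, and Tyms (-0.55) and Rfc3 (-0.58) had unadjusted p-values of 0.0424 and 0.0414, against 2.22% of all genes lower. Among single genes the sign turned as follows, and the cause was not tested. Mcm6 was 0.0055 with RLE factors, 0.018 with the block and 0.0044 in DESeq2. Chaf1a was 0.13 and Ccne2 -0.022 with the block. Without the 2 libraries numbered 1, Mcm4 was -0.23, Ccne2 -0.24, Dtl -0.045, Asf1b -0.13, Dck -0.10 and Bub1 -0.28. With 1 library left out, ranges that cross 0 were -0.49 to 0.029 for Mcm3, -0.21 to 0.50 for Mcm4, -0.49 to 0.065 for Mcm5, -0.42 to 0.33 for Mcm6, -0.54 to 0.093 for Mcm7, -0.44 to 0.19 for Rrm1, -0.68 to 0.39 for Rrm2, -0.76 to 0.080 for Cdc6, -0.70 to 0.15 for Gins2, -0.60 to 0.068 for Fen1 and -0.57 to 0.36 for Chaf1b. They were -0.32 to 0.14 for Chaf1a, -0.24 to 0.15 for Slbp, -0.44 to 0.24 for Tipin, -0.38 to 0.049 for Rfc2, -0.32 to 0.097 for Prim1, -0.36 to 0.49 for Ccne2, -0.46 to 0.090 for Lig1, -0.16 to 0.76 for Asf1b, -0.050 to 0.81 for Dck and -0.13 to 1.499 for Bub1. Leaving out an anti-PD-L1 library sets a single library, assumed to vary like the controls, against 3 controls, or against 2 without the libraries numbered 1. Medians of the other lists and their named genes were run under these alternatives after seeing the data.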
